A study of Mus musculus with 4 samples.

Results

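Among 14121 CpG island regions measured by methylated DNA immunoprecipitation (MeDIP) in mouse embryonic stem cells, 519 (3.68%) lay at a moderately high level of enrichment and are described here. A region was a run of at least 3 array probes whose starts lay no more than 500 bp apart. Its value was the mean over its probes of the log2 of IP (immunoprecipitated) over whole DNA, after each array had been centred on its median probe. The members were chosen by the mean of this value over the 4 arrays, which had to be above 2 and at most 3, so their level is given as a description. They held 2544 of the 95657 probes in regions (2.66%). Positions are those of the array files, taken as mouse build mm8. No gene table or genome of that build was used here, so the regions are named by position and without sequence.

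CpG islands are short stretches rich in CpG dinucleotides that often overlap promoters, and most of them stay free of methylation. Exceptions include the islands of imprinted genes, which carry methylation on the copy from 1 parent, and islands of germline genes and of gene bodies. In MeDIP an antibody against 5-methylcytidine pulls down DNA fragments, so the ratio grows with the number of methylated CpGs in a fragment. An intermediate ratio can come from partial methylation, from methylation in part of the cells or of the alleles, or from few CpGs, and an array of this kind cannot tell these apart. PARP-1 builds chains of ADP-ribose on proteins at DNA breaks and in chromatin, and PJ34 is an inhibitor of PARP enzymes.

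The samples were genomic DNA of the J1 line without change (1 array, called wild type here), of the Parp-1 deficient lines 210-58 and 226-47, both derived from J1 (1 array each), and of J1 cells treated with PJ34 (1 array). Each line is 1 culture as far as the labels say, the labels give no dose or duration for PJ34, and nothing in them says whether the clones arose independently. Cy5 carried the IP DNA and Cy3 the whole DNA on every array, and no dyes were swapped. The arrays lay on 2 slides: wild type with clone 210-58, and clone 226-47 with PJ34. The scale of the log ratios differed between arrays, with a median absolute deviation over probes of 1.01 in wild type, 1.09 in 210-58, 0.804 in 226-47 and 1.13 after PJ34. In the members, the Cy5 signal was well above background for 99.7% to 99.9% of probes on each array. The number of arrays limits the precision.

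The range from 2 to 3 lay on the falling flank of the distribution of island levels, above the bulk of islands near 0 and below a separate group of highly enriched islands. In bins of 0.25 there were 225 regions just below 2, then 152, 143, 128 and 96 inside the range. The count reached its low at 71 regions from 3 to 3.25 and rose again to 98 from 4.25 to 4.5. The bounds therefore cut through a continuum at the lower end and near the trough at the upper end. The members nearest inside the lower bound had means of 2.002, 2.003 and 2.005, and the regions nearest below it 1.998, 1.999 and 1.9997. At the upper bound the nearest values were 2.991, 2.992 and 2.996 inside and 3.011, 3.011 and 3.018 outside.

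**Figure D1:**
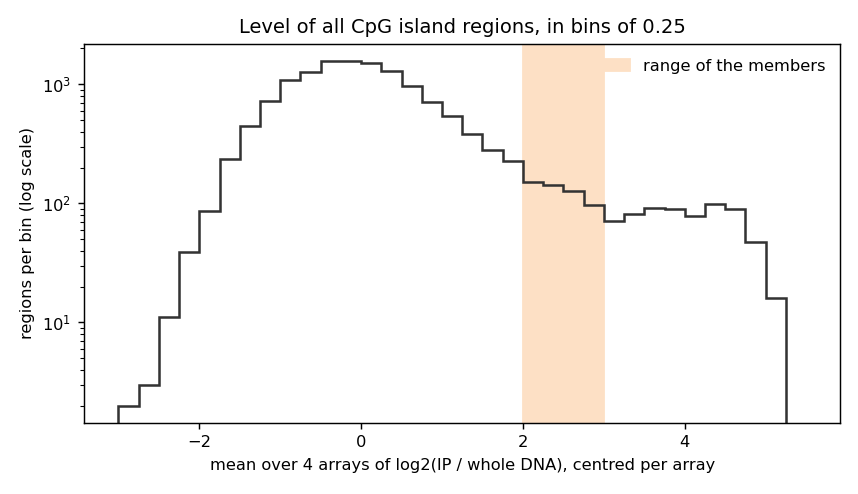
Number of regions (log scale) in each 0.25 bin of the mean log2 ratio of IP to whole DNA over 4 arrays, with the range of the members shaded. The outline falls through the shaded range, from 152 to 96 regions per bin, to 71 in the next bin and rises again to 98 near 4.25.

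The members did not sit at the same level on each array. Their median was 2.69 in wild type (lowest 1.29, highest 3.87) and 2.70 after PJ34 (1.56 to 4.80). It was 2.41 in clone 210-58 (-1.66 to 3.87) and 1.95 in clone 226-47 (-0.09 to 4.50). Only the Parp-1 deficient arrays held members far below the range. A level above 2 and at most 3 was found for 349 members in wild type, 380 in 210-58, 224 in 226-47 and 364 after PJ34, and on all 4 arrays for 77 members (14.8%). All 4 arrays lay above 2 in 209 members. Clone 226-47 had the lowest value in 435 members (83.8%), and also in 546 of the 662 regions above 3 (82.5%), so its low place was shared with the most enriched islands. After every array was scaled to the same median absolute deviation the order of the clones turned: the median of 210-58 minus 226-47 over the members went from 0.42 to -0.25.

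**Figure D2:**
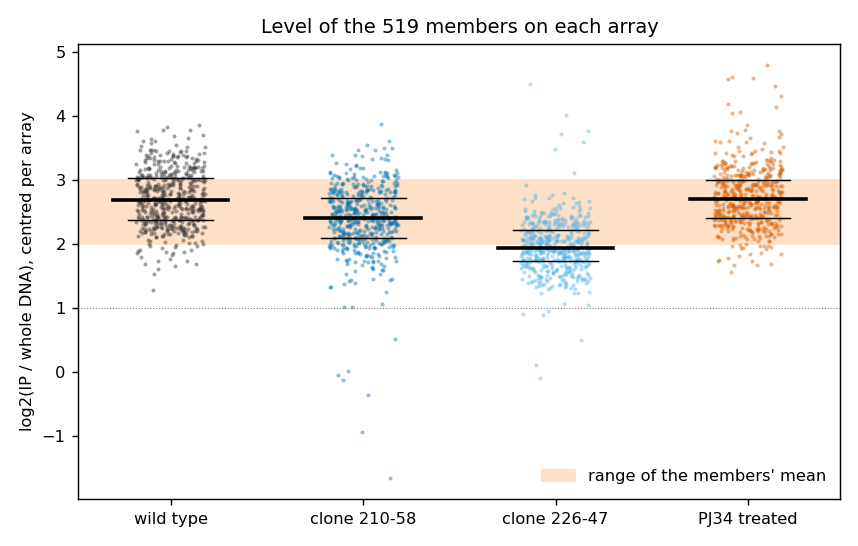
Level of each of the 519 members (points, spread sideways at random) on each array as the centred log2 ratio of IP to whole DNA. Thick lines are medians, thin lines quartiles, the shading is the range of the mean that chose the members and the dotted line is at 1; clone 226-47 has the lowest median, 1.95, and only the clones reach below 1.

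The range over the arrays (highest minus lowest) was under 0.5 in 38 members, 0.5 to 1 in 259, 1 to 2 in 198 and 2 or more in 24. The last made up 4.62% of the members, against 1.36% of the regions above 3, 0.908% of the 1432 regions above 1 and at most 2, and 0.673% of all regions. A region that is high on some arrays and low on others has a mean in this range by arithmetic, so these shares are a description of what the rule gathers and not a property found in it.

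Moderate means thus covered different patterns, and 11 members fell below 1 on at least 1 array. They were picked out after their values were seen. Each of them was also above 3 on another array. The low array was clone 210-58 in 7 and clone 226-47 in 6 of them, and wild type or PJ34 in none. They form 3 patterns: low in both clones, low in clone 210-58 alone, and lowest in clone 226-47 with clone 210-58 between it and the other arrays.

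A pair of members was enriched in wild type and after PJ34 and near 0 in both clones. On chromosome 11 from 11925467 to 11926345 (10 probes), the level was 3.65 in wild type, -0.12 in 210-58, 0.11 in 226-47 and 4.58 after PJ34. Wild type and PJ34 were high and both clones were at the level of a typical probe. The whole DNA signal of this region was 0.56 higher in clone 210-58 than in wild type (log2), a shift it shared with many members on chromosome 11. On chromosome 2 from 173941465 to 173943988 (22 probes over 2524 bp, the longest member by probe count), the level was 3.60 in wild type, 0.02 in 210-58, -0.09 in 226-47 and 4.61 after PJ34. All 22 probes were lower in both clones than in wild type. The wild type probes ran from 3.07 to 3.84 and those of clone 226-47 from -1.63 to 2.13, so the clones were uneven along a region that was flat in wild type. A neighbouring region 975 bp away (173940167 to 173940489) gave 3.82, -0.14, 0.04 and 4.19 on wild type, clone 210-58, clone 226-47 and PJ34. It had the same pattern but a mean of 1.98, and so lay just outside the members.

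Low in clone 210-58 alone were 5 members, and these were also all 5 members in which 210-58 lay at least 1 below 226-47. On chromosome 18 from 13116490 to 13116973 (3 probes) the level was 3.31 in wild type, -1.66 in 210-58, 3.60 in 226-47 and 4.47 after PJ34. On chromosome 6 from 4697308 to 4698444 (8 probes) it was 2.78, -0.94, 3.49 and 3.87 in the same order, and the Cy5 signal in clone 210-58 was well above background for 6 of the 8 probes. On chromosome 7 from 143104693 to 143106020 (8 probes) it was 3.55, -0.36, 3.72 and 4.59. In these members clone 210-58 stood alone and the other arrays were at 2.78 or more. On chromosome 6 from 30688022 to 30688551 (6 probes) the level was 2.19 in wild type, -0.05 in 210-58, 4.50 in 226-47 and 2.77 after PJ34. Here the clones lay on opposite sides of wild type, and 4.50 was the highest value of any member in clone 226-47. On chromosome 6 from 58836201 to 58836830 (5 probes) the level was 2.84, 0.52, 3.77 and 3.17. Every probe of the 5 members was lower in clone 210-58 than in clone 226-47, and clone 226-47 and PJ34 lay above wild type in each. The whole DNA signal of these members differed from wild type by 0.01 to 0.25 in clone 210-58 and by -0.07 to 0.06 in clone 226-47.

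The other 4 members of this kind were lowest in clone 226-47. On chromosome 15 from 84959389 to 84960006 (7 probes) the level was 3.01 in wild type, 1.95 in 210-58, 0.50 in 226-47 and 2.74 after PJ34. On chromosome 13 from 56531867 to 56532553 (6 probes) it was 3.79, 1.86, 0.96 and 4.06. Clone 210-58 was lower than wild type in these regions too, but stayed above 1. The remaining pair, on chromosome 14 from 59040692 to 59040973 (4 probes) and on chromosome 9 from 122751898 to 122752354 (3 probes), had 0.89 and 0.91 in clone 226-47 and 1.44 and 1.33 in clone 210-58, against 3.15 and 3.03 in wild type.

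**Figure D3:**
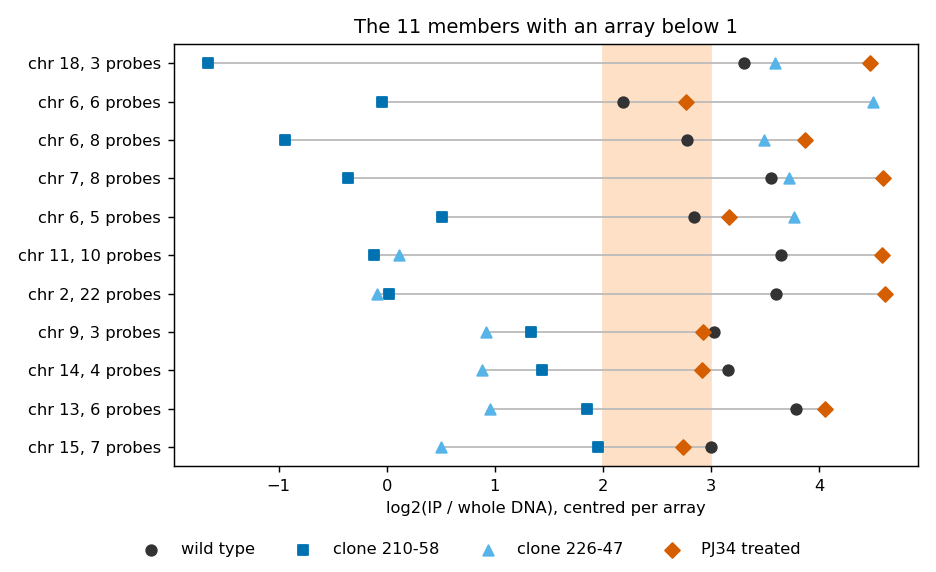
The 11 members with a level below 1 on at least 1 array, each on a line with its values on the 4 arrays as the centred log2 ratio of IP to whole DNA; labels give the chromosome and number of probes. In the upper 5 only clone 210-58 is low, in the next 2 both clones are near 0, and in the lower 4 clone 226-47 is lowest, between 0.50 and 0.96.

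Over the members as a set, the Parp-1 deficient clones lay below wild type. The median difference of the clones' mean from wild type was -0.48 (log2), against 0.01 over all regions. It was -0.18 over the regions above 3 and -0.16 over those above 1 and at most 2. Both clones were lower than wild type in 360 members and both higher in 20. The sizes differed between the clones, with medians of -0.26 in 210-58 and -0.72 in 226-47, which are also the values with the other clone left out. Clone 210-58, which shared its slide with wild type, was lower in 366 of the 519 (70.5%). The share was 54.4% of all regions, 45.0% of the regions above 3 and 51.6% of those above 1 and at most 2. Clone 226-47 was lower than wild type, on the other slide, in 493 (95.0%) and lower than PJ34, on its own slide, in 490 (94.4%). These shares were 43.2% and 41.2% of all regions. They were 86.0% and 99.5% of the regions above 3, and 77.4% and 83.5% of those above 1 and at most 2. The low place of clone 226-47 was thus shared with the other enriched islands. With arrays scaled to equal median absolute deviation, the medians were -0.45 in 210-58 and -0.23 in 226-47, so the direction held for both and the order of their sizes did not.

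In limma (trend fitted over all 14121 regions, Benjamini-Hochberg adjusted p under 0.05), 39 members fell in the clones against wild type, 7.51% of the members, where 1.59% of all regions were called lower. None was called higher, where 1.19% of all regions were; at an unadjusted p under 0.05 in the same test 115 members (22.2%) were lower and 5 (0.963%) higher, against 6.45% and 5.54% of all regions. Because the mean of these same arrays chose the members, nothing is read from the size of that share. Among the regions above 3 the test called 2 of 662 lower, and among those above 1 and at most 2 it called 70 of 1432. The median SE was 0.665 above 3, 0.428 in the members and 0.339 in the regions above 1 and at most 2. A call above 3 therefore took a larger difference, and these counts do not measure how common falls were. The 39 had a median of 3.26 in wild type (2.59 to 3.87), 1.54 in 210-58 (-1.66 to 2.35), 1.46 in 226-47 (-0.09 to 3.72) and 3.06 after PJ34 (1.78 to 4.80). Both clones were lower in 36 of them, every probe was lower in both clones in 35, and wild type was above 3 in 33. The other 3 were low in clone 210-58 alone, on chromosomes 18, 7 and 6 (from 4697308), since the fit draws each error from the general trend of spread with level and hardly from how far the clones differ in that region. The p-values rest on 2 clones and 1 wild type array. Their error is mostly the spread between the clones over regions of similar level, not the agreement of the clones in a region. On chromosome 18 (from 13116490) the clones had an SD of 3.71, yet the SE of the difference was 0.37. No spread between wild type cultures enters. The calls depended on the scaling: quantile normalization kept 8 of the 39, and intensity loess within arrays kept 0.

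The 12 largest falls with both clones lower ran from -3.65 to -1.89. The regions on chromosomes 11 and 2 described above led with -3.65 ± 0.33 (SE; limma adjusted p = 2.73e-24) and -3.64 ± 0.33 (2.34e-24), at n = 2 clones against 1 array. The SD between the clones in these regions was 0.16 and 0.08, so the SE came mainly from the trend. In the other 10, clone 210-58 stayed between 1.01 and 2.30 and clone 226-47 between 0.89 and 1.73, whereas wild type was between 3.03 and 3.87. These regions went down to a level still above that of a typical probe. PJ34 was above wild type in 8 of the 12, but in 17 of all 39 called lower. The level was 3.79 in wild type, 1.06 in 210-58, 1.73 in 226-47 and 4.80 after PJ34 on chromosome 7 from 128479186 to 128479782 (6 probes; -2.39, limma adjusted p = 4.48e-06). On chromosome 8 from 125661363 to 125662022 (7 probes) it was 3.57, 1.02, 1.33 and 4.18 in the same order (-2.40, 8.01e-07). The whole DNA signal there was 0.36 lower in both clones than in wild type, near the median of -0.41 over the members of chromosome 8. On chromosome 9 from 91181853 to 91182451 (6 probes) it was 3.29, 1.01, 1.38 and 3.73 (-2.10, 2.21e-05). Its neighbours 1738 and 4692 bp away did not share the pattern: the nearer one had 0.61 in wild type, 0.53 and 0.35 in the clones and 0.58 after PJ34, and the other 1.12, 1.10, 0.77 and 1.31.

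The clones were less alike in some of the others. On chromosome 7 from 18967874 to 18968322 (4 probes) the level was 3.71 in wild type, 2.30 in 210-58, 1.04 in 226-47 and 4.31 after PJ34, a fall of 2.04 (limma adjusted p = 0.000357) with 1.26 between the clones. On chromosome 17 from 87042133 to 87043537 (10 probes) it was 3.87, 2.19, 1.46 and 4.15 (-2.04, 0.000723). On chromosome 8 from 48891215 to 48891563 (3 probes) it was 3.83, 2.09, 1.63 and 3.79 (-1.98, 0.0013). Both clones were below wild type in each of these. On chromosome 3 from 62691523 to 62691941 (5 probes) it was 3.27, 1.25, 1.52 and 2.33 (-1.89, 0.000326). This was the only one of the 12 with PJ34 well below wild type, and it was not called against PJ34 (-0.94, limma adjusted p = 0.31). Under quantile normalization 4 of the 12 were no longer past the threshold: both on chromosome 7, the one on chromosome 9 from 91181853 and the one on chromosome 3, with falls of 1.74 to 2.24. Under intensity loess none of the 12 passed, with differences from -2.52 to -0.80. The other 24 members called with both clones lower had differences of -1.88 to -1.24 and adjusted p-values from 0.000425 to 0.0433.

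**Figure D4:**
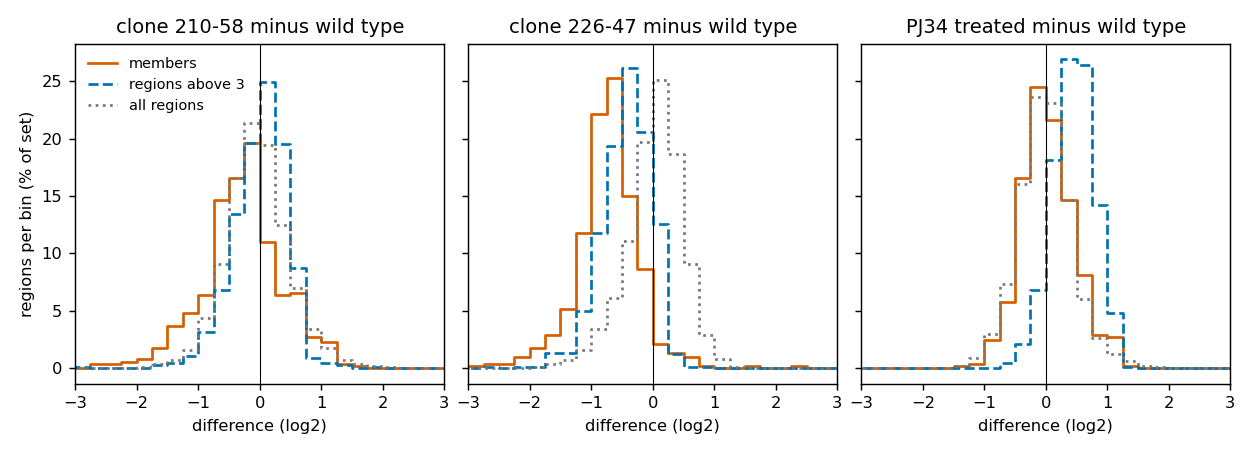
Distribution over regions of the difference from wild type in clone 210-58, clone 226-47 and PJ34 treated cells (log2, bins of 0.25, as a share of each set), for the members, the regions above 3 and all regions; values beyond -3 or 3 are not drawn. The members' outline is left of 0 in both clones (medians -0.26 and -0.72) and centred on 0 after PJ34, where the regions above 3 lie to the right (median 0.47).

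The clones could also be set against the PJ34 array, without wild type. The median difference over the members was -0.49, against -0.007 over all regions. It was -0.65 over the regions above 3 and -0.25 over those above 1 and at most 2, so it was not particular to the members. In limma at an adjusted p under 0.05, 23 members were called lower in the clones (4.43%) and none higher. The shares over all regions were 0.404% and 0.942%. At an unadjusted p under 0.05 the same test gave 95 lower (18.3%) and 2 higher (0.385%), against 3.06% and 5.24% of all regions. The regions above 3 had 4.68% lower and 0% higher by this measure. Those above 1 and at most 2 had 10.3% lower and 1.75% higher. The SE of the test differed between these sets. Its median was 0.679 above 3, 0.447 in the members and 0.356 in the regions above 1 and at most 2. The mean that chose the members includes these arrays, so nothing is read from the size of these shares. Every probe was lower in both clones than after PJ34 in all 23. Of the 23, 21 were also called against wild type, which is 91.3% of these calls and 53.8% of the 39; the comparisons share the clone arrays. Quantile normalization left 4 calls and intensity loess 0.

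PJ34 and wild type had 1 array each, so they are compared by size with no test. The median difference over the members was 0.00045, with PJ34 higher in 260 and lower in 259, whereas the regions above 3 had a median of 0.47. A difference of at least 1 was found upward in 15 members (2.89%, against 2.44% of all regions) and downward in 3 (0.578%, against 1.25%). These shares are near or below those of all regions. Scaling to equal median absolute deviation turned the split to 1 upward and 18 downward, and quantile normalization to 1 and 9. The direction of the whole set is therefore not given by these arrays.

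In the 6 largest gains and the 6 largest losses every probe lay on the same side of wild type. The sizes depended on the scaling: the 6 gains were 1.10 to 1.34 as given, 0.65 to 1.04 with equal median absolute deviation and 0.47 to 0.68 under intensity loess. The 6 losses were -1.29 to -0.94 as given, -1.50 to -1.17 and -0.93 to -0.74 under the same settings. On chromosome 11 from 96120959 to 96121386 (3 probes) the level was 1.29 in wild type, 2.46 in 210-58, 1.78 in 226-47 and 2.62 after PJ34. Wild type was the lowest array and PJ34 the highest, 1.34 apart. On chromosome 4 from 126828398 to 126828900 (5 probes) it was 2.26, 3.39, 1.43 and 3.45. Here PJ34 and clone 210-58 were alike, and clone 226-47 was low. On chromosome 10 from 80551078 to 80551774 (5 probes) it was 2.30, 3.40, 2.52 and 3.44, again with clone 210-58 beside PJ34. Gains of 1.17 and 1.10 were seen in members of 3 probes each, on chromosome 14 (27345120 to 27345398) and on chromosome 17 (22581293 to 22581580). The region on chromosome 18, where clone 210-58 was lowest, gained 1.16.

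In each of the losses both clones were below wild type as well. On chromosome 12 from 103726015 to 103726832 (8 probes) the level was 3.08 in wild type, 1.86 in 210-58, 1.56 in 226-47 and 1.78 after PJ34. Wild type stood above the other arrays, with a difference of -1.29 for PJ34 and of -1.37 for the clones (limma adjusted p = 0.0356). On chromosome 6 from 121211223 to 121211600 (3 probes) it was 2.73, 1.80, 1.86 and 1.68, and from 116426343 to 116426817 (4 probes) 2.87, 1.74, 1.71 and 1.84. Wild type was again the highest, but the clones' differences of -0.90 and -1.15 missed the threshold (limma adjusted p = 0.301 and 0.107). On chromosome 7 from 101170831 to 101171165 (3 probes) it was 3.31, 2.54, 2.33 and 2.34. On chromosome 10 from 77421941 to 77422302 (4 probes) PJ34 was lowest, with 2.71, 2.29, 2.43 and 1.74. In such regions a high value of the single wild type array and a low value of the other arrays cannot be told apart. The same limit holds, the other way round, for the gains on chromosomes 11 and 10, where wild type was the lowest array.

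Between the clones, 49 members were at least 1 higher in 210-58 (9.44%, against 1.41% of all regions) and 5 at least 1 lower (0.963%, against 0.977%). At least 1 higher were also 5.29% of the regions above 3 and 4.33% of those above 1 and at most 2. Lower by that size were 0.453% and 0% of these sets. The 49 had medians of 3.01 in clone 210-58, 1.74 in clone 226-47, 2.55 in wild type and 2.99 after PJ34. The largest of them, 1.96, was the region on chromosome 4 given above. These moderate differences depended on the scaling of the arrays: with equal median absolute deviation there were 6 higher and 14 lower, under quantile normalization 20 and 6, and under intensity loess 3 and 8. The 5 large opposite differences, -5.25 to -3.25, were -6.05 to -4.25 with equal median absolute deviation, -5.53 to -3.70 under quantile normalization, -3.54 to -2.73 under normexp background correction and -3.30 to -2.07 under intensity loess.

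At the other end were members that hardly moved. On chromosome 2 from 164660445 to 164660943 (4 probes) the level was 2.59 in wild type, 2.57 in 210-58, 2.39 in 226-47 and 2.39 after PJ34, a range of 0.19. On chromosome 11 from 3092895 to 3093775 (7 probes) it was 2.90, 2.72, 2.92 and 2.80, although its whole DNA signal was 0.81, 0.48 and 0.64 above wild type in clone 210-58, clone 226-47 and PJ34. On chromosome 11 from 101079778 to 101080024 (3 probes) it was 2.21, 2.29, 2.14 and 2.41, with a whole DNA signal 1.31 above wild type in clone 210-58. The ratio there stayed within 0.27, while the whole DNA signal of clone 210-58 differed from that of the single wild type array. The remaining 3 of the 6 steadiest members, on chromosomes 15, 2 and 11, had ranges of 0.27 to 0.32.

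In most members the whole DNA signal lay within 0.5 of wild type. It was at least 0.5 above wild type in clone 210-58 in 27 members, of which 24 lay on chromosome 11, where they made up 48.0% of its 50 members. All 5 members at least 0.5 below wild type in clone 210-58 lay on chromosome 8, as did 4 of the 7 that were lower in clone 226-47. In PJ34 treated cells 7 members were higher and 0 lower. The same counts are not given here for all regions, so these shifts are not read as a trait of the members. Over the 50 members of chromosome 11 the ratio itself had a median difference from wild type of -0.21 in clone 210-58, near the -0.26 of all members.

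Members were shorter than islands in general. They had a median of 4 probes and 439 bp, against 6 probes and 663 bp over all regions and 4 probes and 390 bp over the regions above 3. Only 3 probes supported 148 members (28.5%), and 27 had 10 or more. The SD over the probes of a region was 0.32 at the median, between the 0.25 of the regions above 3 and the 0.57 of those above 1 and at most 2. Every probe was above 2 in 276 members (53.2%), and every probe lay above 2 and at most 3 in 167. A probe below 1 was present in 12 members, and 10 of these also had a probe above 3.

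Some moderate means were therefore averages of a high and a low stretch. On chromosome 5 from 138017313 to 138018323 (10 probes), the probe means over the 4 arrays were -0.44 and -0.02 at the first probes and passed through 1.58 and 2.34 to 3.73 at the last, 963 bp further. All 4 arrays followed the slope, and the next region, 564 bp before it, lay below the level of a typical probe with a mean of -1.04. On chromosome 15 from 80114319 to 80115732 (10 probes) the probe means climbed from -0.28 at the second probe to 3.66 at the last, 1354 bp from the first, yet the regional level was steady, with 2.19 in wild type, 2.23 in 210-58, 1.98 in 226-47 and 1.97 after PJ34. On chromosome 2 from 151661448 to 151662409 (7 probes) they went down from 3.30 at the first to 0.16 at the last. On chromosome 15 from 99703177 to 99703588 (5 probes) the outer probes were at 0.05 and 0.32 and the inner ones between 2.62 and 3.75. These 4 members had the highest SD over probes, from 1.23 to 1.74. Another pair, on chromosomes 1 and 2 (from 91823326 and from 157605702), had SDs of 1.08 and 1.01.

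Even members gave the opposite picture. On chromosome 7 from 29501590 to 29502108 the 5 probe means lay between 2.96 and 3.07 (SD 0.04), while the arrays differed, with 3.02 in wild type, 2.55 in 210-58, 2.36 in 226-47 and 4.06 after PJ34. On chromosome 16 from 84963379 to 84963770 the 5 probe means lay between 2.09 and 2.28, with 3.06 in wild type, 1.72 and 1.87 in the clones and 2.13 after PJ34, a difference for the clones that missed the threshold (-1.27, limma adjusted p = 0.0659). In this pair, even probe means thus went with levels that differed between arrays. How evenness and the range over arrays go together across the members was not tested. The other 4 of the 6 most even members, on chromosomes 19, X, 13 and 5, had probe SDs of 0.07 to 0.11.

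Of the 6 longest members, the one of 22 probes on chromosome 2 was high in wild type and after PJ34 and near 0 in both clones, as given above. The others were intermediate along their whole length or in part of it. On chromosome 8 from 73841930 to 73843844 all 16 probe means were above 2, between 2.09 and 2.83, with 2.37 in wild type, 2.89 in 210-58, 1.96 in 226-47 and 2.57 after PJ34. Its whole DNA signal was lower than wild type in both clones, by -0.44 and -0.40, near the median over the members of chromosome 8. On chromosome 12 from 110635195 to 110637579 (21 probes) 11 probes were above 2, with levels of 2.31, 1.76, 1.64 and 2.39, and the whole DNA signal of clone 226-47 differed from wild type by -0.73. The members on chromosome 11 from 58950619 to 58952641 (19 probes) and on chromosome 5 from 137166046 to 137167919 (15 probes) and from 120063865 to 120065767 (14 probes) had 10, 11 and 8 probes above 2. The region on chromosome 5 from 120063865 lay 6368 bp from a highly enriched one with a mean of 4.37.

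**Figure D5:**
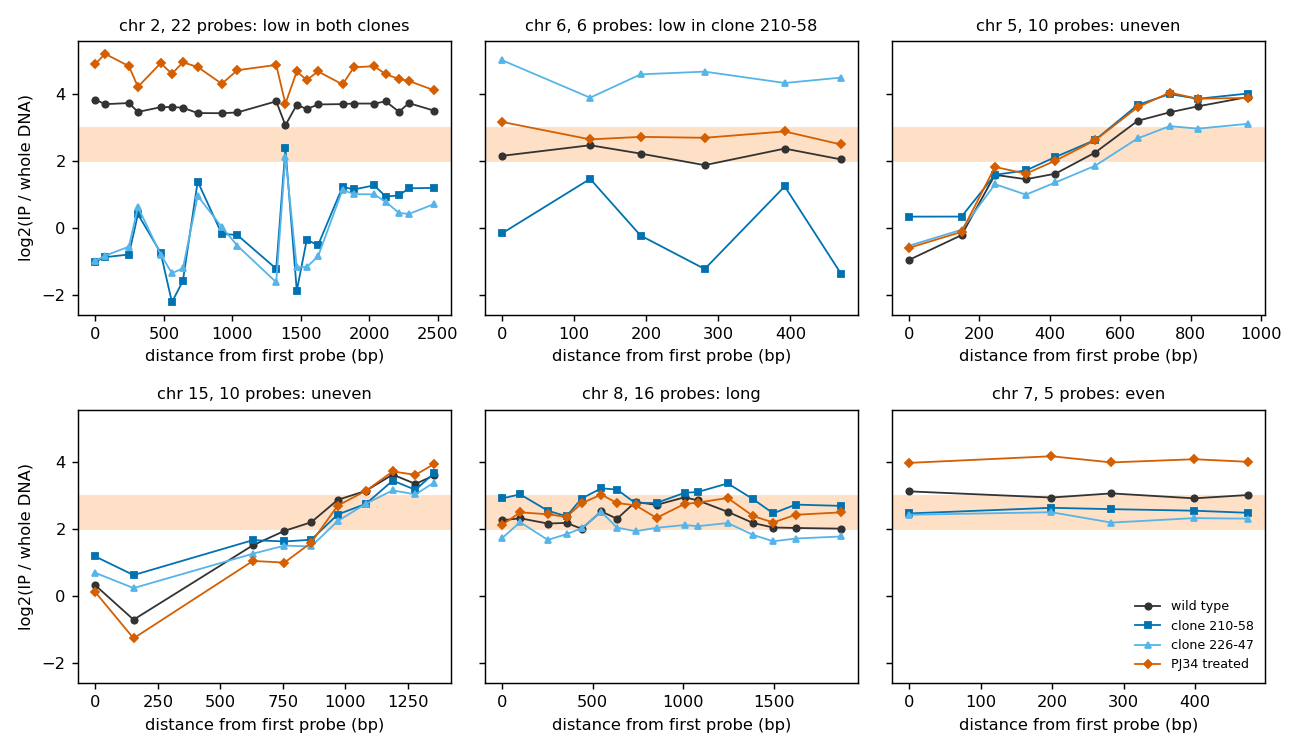
Log2 ratio of IP to whole DNA, centred per array, of each probe against its distance in bp from the first probe of the region on the 4 arrays, for 6 members; the shading is the range from 2 to 3. On chromosome 2 (22 probes) the clones scatter near 0 under a flat wild type line, on chromosome 6 clone 210-58 is low and 226-47 high, the uneven members on chromosomes 5 and 15 slope upward, from lowest probe means of -0.44 and -0.28 to 3.73 and 3.66, and the members on chromosomes 8 and 7 are flat.

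Among the 208 members with 5 or more probes, the outer probes were lower than the inner ones in 121 (58.2%), with a median difference of -0.05. The regions above 3 had lower edges in 160 of 205 (78.0%) and a median difference of -0.18, and all regions in 63.4% and -0.25. Members had another region within 10 kb in 203 cases (39.1%, against 28.2% of all regions). The share was 34.6% for the regions above 3 and 36.5% for those above 1 and at most 2, so it was not particular to the members. The members' neighbour was above 2 in 34 of the 203 (16.7%), against 40.2% for the regions above 3 and 10.6% for all regions. For the regions above 1 and at most 2 it was above 2 in 73 of 523. The members' neighbour lay below 0 in 56 (27.6%, against 45.5% for all regions). This share was 27.1% for the regions above 3 and 31.9% for those above 1 and at most 2. There were 13 pairs of members within 10 kb of each other. The closest, on chromosome 10 from 43198799 to 43199059 and from 43199693 to 43200070, had means of 2.59 and 2.40. Members were found on all 19 autosomes and on X, where they made up 3.33% of regions, and their share ran from 1.96% on chromosome 3 to 5.53% on chromosome 7 and 5.56% on chromosome 17. These shares were not tested.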

How the data were processed

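The members and the rules for naming them were chosen with earlier results of these data known. The scanner files give Agilent Feature Extraction 10.7.3.1 as the source of their intensities, which were background-subtracted and dye-normalized by the authors, per the file headers; version 9.1 stands in the submitters' processing notes. The deposited ratio table equals processed Cy5 over Cy3 and served as an alternative. No source used here names the genome build.

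Control spots (5950 per array), 442 unplaced probes and 30 flagged as outliers on any array were left out of the 97651 probes. No spot was saturated. Log2 ratios were centred on each array's median, with no loess or quantile step. Region means were fitted with limma 3.58.1 in R 4.3.3 (lmFit, eBayes with trend; 1 residual degree of freedom), for the clones against wild type and against PJ34, with Benjamini-Hochberg adjustment over all regions. The script was tested on simulated data. Pairs of single arrays were compared by a size of 1 on the log2 scale. A block for slide leaves no residual degree of freedom, so values within slides are given.

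Named members were the 12 largest falls called with both clones on the same side, the 6 largest gains and losses after PJ34, differences between clones and smallest ranges, the 6 longest, and the 6 most uneven and most even with 5 or more probes. The 11 members with an array below 1 and the neighbours were added after the values were seen. Lists of imprinted, germline and pluripotency genes were not run, since the only gene table at hand was of another build.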

Additional observations from a re-analysis of the deposited data

Results flagged for a closer look

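The whole DNA channel (Cy3) entered no comparison of its own. Relative to wild type, its centred log2 signal was at least 0.5 higher in clone 210-58 in 27 members and at least 0.5 lower in 5. It was at least 0.5 lower in clone 226-47 in 7 members. After PJ34 it was at least 0.5 higher in 7 members. The same counts are not given here for all regions. The part of these shifts in the ratios of the same members was not tested.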

How the results depend on the processing

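The members' median difference of the clones from wild type was negative under every alternative run (-0.48 to -0.32), and lay between -0.72 and -0.26 when either clone was left out. The median of clone 226-47 minus wild type was -0.39 under quantile normalization, -0.28 under intensity loess and -0.23 with equal median absolute deviation. The median of clone 210-58 minus clone 226-47 was 0.061, -0.020 and -0.25 under the same settings, so it changed sign under the last pair. Normexp background correction gave 6 members higher and 1 lower after PJ34 and 27 higher in 210-58 than in 226-47. Quantile normalization gave 8 called against wild type, 4 against PJ34, 1 higher and 9 lower after PJ34, and 20 higher in 210-58. Intensity loess gave 0 called in either contrast, 0 higher and 0 lower after PJ34, and 3 higher and 8 lower in 210-58. Equal median absolute deviation gave 1 higher and 18 lower after PJ34, and 6 higher and 14 lower in 210-58. The median over probes gave 25 called against wild type. With at least 5 probes there were 208 members, with 21 and 14 called, 1 lower after PJ34 and 19 higher in 210-58. Without the trend in limma, 1 member was called higher than PJ34. A size of 0.5 gave 72 higher and 46 lower after PJ34 and 212 higher in 210-58; a size of 1.5 gave 0, 0 and 6. The cause of these changes was not tested. Calls under normexp shared 33 of 34 with the main ones, and those under equal median absolute deviation 33 of 33. The rule itself chose 368 members under normexp, of which 78 were among the 519, and 492 under intensity loess, of which 65 were. With an array left out it chose 491 to 572. Limma without either clone has no residual degree of freedom, and the slide block could not be fitted. No paired analysis was possible because wild type and PJ34 have 1 array each.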
